A study of Mus musculus and Mus musculus
Rattus norvegicus with 30 samples.

Results

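Of the 86450 Cdx2 peaks of mouse embryonic stem cells (mESCs) on chromosomes 1 to 19, 44951 lay outside every ATAC peak and were found again in RMES cells. RMES cells are mouse-rat hybrid embryonic stem cells, with 1 set of mouse and 1 set of rat chromosomes. A Cdx2 peak was taken as a member when it overlapped no ATAC peak of mESCs and overlapped a Cdx2 peak that had been called on the mouse genome of RMES cells by at least 1 bp. Members made up 52.0% of these peaks (95% Wilson interval 51.7 to 52.3). All chromosomes together held 91665 mESC peaks. The other autosomal peaks were 23826 outside ATAC peaks and found in mESCs only, 10497 inside an ATAC peak and shared with RMES, and 7176 inside an ATAC peak and found in mESCs only. The members were thus chosen by measured values, namely the called positions of ChIP and ATAC peaks, which rest on read levels, and their levels, lengths, overlaps and distances to ATAC peaks are given as a description without a test. Intervals on shares cover counting error only.

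Cdx2 is a homeobox transcription factor of the caudal family. It is needed for the trophectoderm, the outer layer of the blastocyst that gives rise to the placenta, and it later acts in the intestine and in the patterning of the posterior body through the Hox genes. Its homeodomain recognises an AT-rich sequence with the core ATAAA. In ATAC-seq a transposase cuts accessible DNA, so an ATAC peak marks an open stretch of chromatin, and ChIP-seq recovers the DNA to which the tagged protein was bound. A peak that one assay calls and the other does not is a statement about thresholds, and no ATAC read counts at the members were analysed here.

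The cells carried Flag-tagged mouse Cdx2 (mCdx2-OE) or Flag-tagged rat Cdx2 (rCdx2-OE) under a DOX-inducible Tet-On system in stably transduced lines, and the ChIP used an antibody to the tag. The controls are labelled WT, whereas the study describes cells with and without DOX. ChIP-seq gave 1 library for each protein in mESCs and in RMES, ATAC-seq gave 1 WT and 1 mCdx2-OE library of mESCs, and RNA-seq gave 2 libraries for each of 10 mESC groups (WT, both full-length proteins and 7 mutant forms of rCdx2) and 4 RMES libraries (2 WT, 1 mCdx2-OE and 1 rCdx2-OE). No ATAC-seq of RMES and no input DNA was analysed here. Whether the 2 RNA libraries of a group came from separate cultures is not stated, so p-values measure only the spread between these libraries.

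ChIP libraries held 5550846 to 6223794 reads in mESC peaks and 3387074 to 4357448 in the mouse-genome peaks of RMES. RNA libraries held 12698443 to 24315929 counts in induced mESCs, against 74960057 and 94695650 in the 2 WT libraries, and 36166038 to 41418817 on the mouse genome of RMES. The stem cell marker Pou5f1 stood at 1479 and 1490 CPM, counts scaled to the same library size, in WT mESCs and at 1923 and 1926 CPM in WT RMES. Endogenous and transgenic mouse Cdx2 cannot be told apart in these counts. Cdx2 stood at 1.37 and 1.23 CPM in WT mESCs, at 97.7 and 126 CPM with mCdx2 and at 70.5 and 66.7 CPM with rCdx2. On the mouse genome of RMES it stood at 129 and 126 CPM in both WT libraries, at 969 CPM with mCdx2 and at 4.46 CPM with rCdx2. The WT RMES libraries were thus not low in mouse Cdx2. These RMES values count only reads assigned to the mouse genome, so the rat transgene is not expected among them and the 4.46 CPM is no measure of total Cdx2 in the rCdx2 cells.

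The sequences below are the central 200 bp of 8 members, read on the plus strand of GRCm38 (mm10) from the RefSeq assembly GRCm38.p6. They are shown because the results turn on them: the strongest member, the strongest one that holds a full motif, members next to genes described below, and the members that differed most between mouse and rat protein. The motif searched was any of GCAATAAA, GCCATAAA, GTAATAAA and GTCATAAA, on both strands, and the shorter core was AATAAA or CATAAA. Capitals mark the full motif, or in the strongest site and in the site with the largest excess of mCdx2 the core, since neither holds the full motif. In both sites with an excess of rCdx2 nothing is in capitals, because neither motif nor core was found there.
strongest site, chr11:41748909-41749108: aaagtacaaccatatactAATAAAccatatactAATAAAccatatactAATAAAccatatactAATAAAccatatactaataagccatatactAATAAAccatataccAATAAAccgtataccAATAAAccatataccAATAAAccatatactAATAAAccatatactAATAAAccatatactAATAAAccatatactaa
strongest site with a motif in its centre, chr9:69977943-69978142: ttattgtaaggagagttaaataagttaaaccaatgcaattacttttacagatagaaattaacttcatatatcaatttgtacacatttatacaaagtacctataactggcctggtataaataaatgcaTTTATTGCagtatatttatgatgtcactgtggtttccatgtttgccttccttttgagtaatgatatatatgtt
site nearest Cdx2, chr5:147281424-147281623: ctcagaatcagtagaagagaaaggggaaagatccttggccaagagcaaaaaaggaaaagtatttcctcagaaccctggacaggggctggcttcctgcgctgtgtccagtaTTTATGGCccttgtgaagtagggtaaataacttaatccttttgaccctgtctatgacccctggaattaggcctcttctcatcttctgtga
site nearest Gcm1, chr9:78056632-78056831: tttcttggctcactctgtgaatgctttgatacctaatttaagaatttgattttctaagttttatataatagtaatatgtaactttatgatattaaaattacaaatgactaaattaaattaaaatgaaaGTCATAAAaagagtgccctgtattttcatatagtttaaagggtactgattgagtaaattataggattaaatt
site nearest Tbx15, chr3:99228488-99228687: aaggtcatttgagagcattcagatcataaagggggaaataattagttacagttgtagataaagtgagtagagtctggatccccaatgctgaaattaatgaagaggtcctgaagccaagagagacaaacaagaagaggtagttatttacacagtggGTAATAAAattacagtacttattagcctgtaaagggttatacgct
largest excess of rCdx2, chr14:102788352-102788551: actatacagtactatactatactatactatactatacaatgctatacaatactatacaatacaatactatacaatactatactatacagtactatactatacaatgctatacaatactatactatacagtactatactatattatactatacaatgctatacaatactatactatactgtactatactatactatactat
second excess of rCdx2, chr3:129683903-129684102: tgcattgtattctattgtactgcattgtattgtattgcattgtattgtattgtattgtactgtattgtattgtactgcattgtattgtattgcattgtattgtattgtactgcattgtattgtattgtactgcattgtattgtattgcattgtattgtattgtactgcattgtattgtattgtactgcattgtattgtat
largest excess of mCdx2, chr5:79870547-79870746: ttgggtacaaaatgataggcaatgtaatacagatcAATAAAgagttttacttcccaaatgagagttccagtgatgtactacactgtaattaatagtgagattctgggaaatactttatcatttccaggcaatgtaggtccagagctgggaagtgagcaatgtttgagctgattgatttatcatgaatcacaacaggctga

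The strongest member, chr11:41748735-41749284 in an intron on chromosome 11, is a tandem repeat, and it held 14 cores and 0 full motifs over its 550 bp. Its scaled read counts, in which the libraries of a cell type are set to the same total, were 778 for mCdx2 and 727 for rCdx2 in mESCs and 509 and 711 in RMES. It was the highest by the sum over the 4 libraries among members on chromosomes other than 18. Every ranking of single sites here leaves out chromosome 18. The site chr9:69977720-69978367, intergenic and 11423 bp from the start of Bnip2, held 3 full motifs and read 590 and 633 in mESCs and 320 and 305 in RMES. The site nearest Cdx2, chr5:147281337-147281712, holds TTTATGGC on the plus strand and lies 25746 bp from the Cdx2 start. It read 27.4 and 44.5 in mESCs and 21.3 and 14.9 in RMES, below the member medians given next in all 4 libraries.

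Members were moderate peaks, most of them away from ATAC peaks. Their median length was 401 bp, with the middle 50% between 303 and 551 bp. The median scaled read count was 51.1 for mCdx2 and 50.9 for rCdx2 in mESCs and 42.7 and 43.4 in RMES, against 105 and 102 in mESCs for shared peaks inside ATAC peaks and 30.3 and 31.8 for peaks outside ATAC peaks found in mESCs only. Members held 50.7% and 50.2% of all reads in mESC peaks (mCdx2 and rCdx2) and 61.7% and 62.3% of those in all mouse-genome peaks of RMES. The median gap to the nearest ATAC peak was 18339 bp. Of the members, 36.0% lay within 10 kb of an ATAC peak (16202) and 6.44% within 1 kb (2895). The nearest ATAC peak had gained at least 2-fold in mCdx2-OE over WT for 12.7% of members, against 8.95% of all autosomal ATAC peaks, and had lost at least 2-fold for 16.2%, against 14.6% of all. With 1 ATAC library for each condition these shares have no replicate check. Peaks outside ATAC peaks found in mESCs only gave 12.2% and 15.8%.

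The overlap with RMES peaks was not marginal. In 96.0% of members the RMES peak covered at least 50% of the mESC peak, and 5 members had an overlap of 100 bp or less. Near the other edge of the rule, 353 members lay within 100 bp of an ATAC peak with a median scaled mESC sum of 90.6, and 459 shared peaks overlapped one by at most 100 bp with a median of 96.3. Just outside the sharing rule, 4 peaks outside ATAC lay within 100 bp of an RMES peak without overlap, with a median of 86.3.

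The share of peaks found again in RMES was greater in groups of higher read count, inside and outside ATAC peaks. When all autosomal mESC peaks were put into 5 groups of equal size by summed scaled counts, the share of peaks outside ATAC that was found in RMES was 39.2% in the weakest group and 54.0, 66.6, 81.9 and 95.5% in the following ones. Inside ATAC peaks the share was 10.5% in the weakest group and 93.9% in the strongest. Sharing also varied along the genome: 54.4% of the peaks outside ATAC on chromosome 16 and 59.3% on chromosome 3 were shared, against 64.0 to 68.4% on the other autosomes. The same 2 chromosomes had the lowest shares of members among all their peaks, 42.5% and 47.2%.

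**Figure D1:**
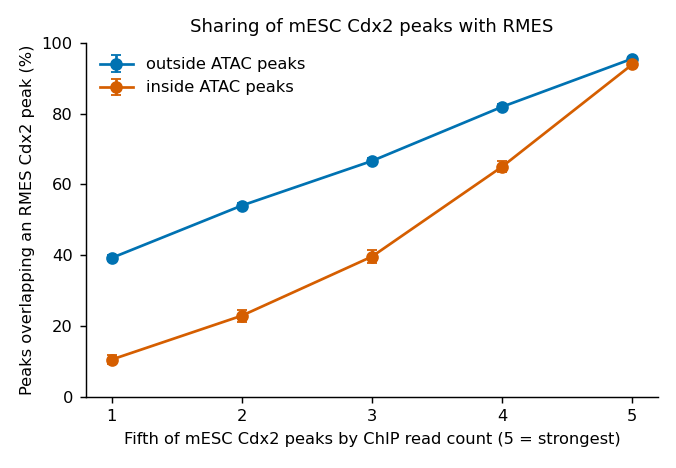
Share of mESC Cdx2 peaks that overlapped an RMES Cdx2 peak, against the group of peaks by ChIP read count (5 groups of equal size, 5 the strongest), outside and inside ATAC peaks, with 95% Wilson intervals as bars. The curve outside ATAC runs from 39.2 to 95.5% and lies above the curve inside ATAC, which runs from 10.5 to 93.9%.

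The Cdx motif was concentrated at the members' centres. A full motif lay in the central 200 bp of 9873 members, 22.0% (21.6 to 22.3), against 4.28% and 3.88% in windows of the same length 1 kb to either side. The shorter core lay in 79.6% of centres and in 44.1% of flanks. Over the whole peak the full motif was found in 33.9% of members and the core in 93.3%. These shares were near those of all autosomal Cdx2 peaks. There the full motif lay in 22.2% of centres and 33.5% of whole peaks, and the core in 78.4% and 91.7%. Of peaks outside ATAC found in mESCs only, 20.9% held a full motif in the centre. Each of the 4 spellings was more frequent in the centre than in the flank, from 4.82 times for GCCATAAA to 5.76 times for GTCATAAA. The ratios ran from 6.21 to 11.8 at shared peaks inside ATAC and from 5.09 to 5.92 at mESC-only peaks outside. Among all words of 7 letters, counted in 100 bp, GCAATAA was the most raised, at 6.73% of centres and 1.36% of flanks, a ratio of 4.95. The highest ratio was 8.48 at shared peaks inside ATAC, for GCCATAA, and 5.23 at mESC-only peaks outside, for GCAATAA. Matches are a description of letters and not of binding events, and sites without a match may hold other spellings.

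**Figure D2:**
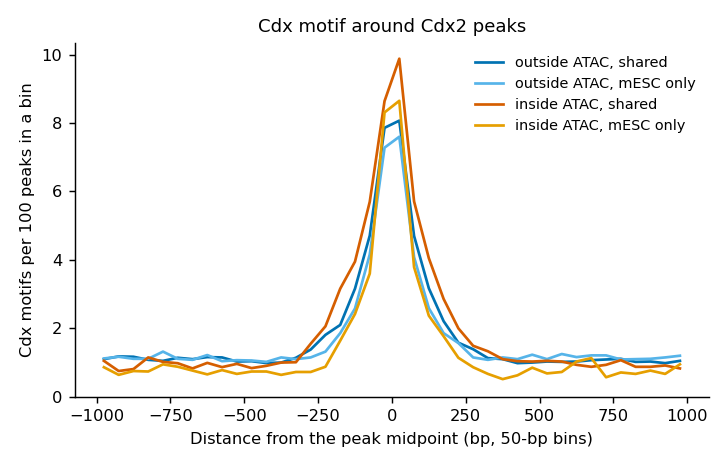
Number of Cdx motifs for each 100 peaks in 50-bp bins against the distance from the peak midpoint in bp, for the 4 classes of autosomal Cdx2 peaks. All 4 curves peak at the midpoint, and the members' curve at its highest lies below that of the shared peaks inside ATAC.

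At like read counts, members and shared peaks inside ATAC had separate intervals of the motif share in the 3 strongest of the 5 groups and overlapping ones in the 2 weakest, and the difference was not tested. Among the strongest of the 5 groups, 19.5% of members (18.8 to 20.3) held a full motif in the central 200 bp, against 25.4% (24.3 to 26.5) of shared peaks inside ATAC and 13.3% (10.5 to 16.6) of mESC-only peaks outside. Among the weakest group the shares were 27.0% (25.9 to 28.1) for members, 22.4% (17.4 to 28.3) and 23.9% (23.1 to 24.8). Within the members the share in the central 200 bp fell from 27.0% in the 20% with the lowest mESC counts to 19.4% in the 20% with the highest. Over the whole peak it moved the other way, from 28.6% to 43.5%, while the median length rose from 256 to 631 bp and the cores in each peak from a median of 2 to 4. Cores for each 100 bp of peak went from 0.920 to 0.710. The centre was the midpoint of the peak, since summits were not used here, and in a long peak the summit can lie outside the central 200 bp.

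Members lay in AT-rich, little repeat-masked DNA, in introns and between genes, and few were close to a gene start. The median GC content of the central 200 bp was 33.5%, against 39.5% in the flanks and 39.0% at shared peaks inside ATAC. In 9.39% of members at least 50% of the centre was soft-masked as repeat, against 21.2% of flanks. The midpoint was intergenic for 50.8% of members and intronic for 45.4%, where 51.7% and 42.1% of autosomal bases are so annotated. A gene start lay within 1 kb of 425 members, 0.945% (0.860 to 1.04), while 2.30% of autosomal bases lie that close to one and 4.03% of shared peaks inside ATAC did. The median distance to the nearest gene start was 63168 bp for members and 29752 bp for shared peaks inside ATAC. Peaks outside ATAC found in mESCs only were much alike, with a median GC content of 32.0% and a median distance of 60486.5 bp. Of them 52.5% were intergenic, 43.8% were intronic and 1.03% lay within 1 kb of a gene start. At least 50% of the centre was soft-masked in 13.4%. These traits are thus not particular to members.

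Other factors' words were not raised to the same degree. The GATA word lay in 44.3% of centres and 33.9% of flanks, and the Klf word in 4.34% and 9.87%. The Octamer word, read by Pou5f1 and its relatives, lay in 4.88% and 5.30%, and the Tead word in 10.1% and 10.7%. The other words searched lay in 31.5% and 29.2% (Sox), 3.41% and 3.18% (AP-1), 4.44% and 6.36% (E-box) and 17.5% and 27.7% (Ctcf). Peaks outside ATAC found in mESCs only held the GATA word in 45.6% of centres and 33.1% of flanks, so its higher share in centres is not particular to members. These windows differ in GC content, which was not matched.

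The next question was whether the mouse and the rat protein bound the members alike. Their read levels followed each other closely. Across members the correlation of log2 scaled counts between mCdx2 and rCdx2 was 0.929 in mESCs and 0.876 in RMES (Pearson, 44951 sites of the same libraries, as a description), and that between the mESC and the RMES sums was 0.781. In mESCs 183 members were over 2-fold higher with mCdx2 and 113 with rCdx2, together 0.658%, against 0.912% of all mESC peaks (0.452% with mCdx2 and 0.460% with rCdx2). In RMES the numbers were 293 and 436, together 1.62%, against 1.51% of all mESC peaks that overlapped an RMES peak (0.670% with mCdx2 and 0.836% with rCdx2). Among the 23153 members with at least 100 reads over both mESC libraries 16 were past 2-fold, 9 with mCdx2 and 7 with rCdx2, which is 0.0691%, against 0.0655% of all mESC peaks with as many reads. Between the cell types the log2 ratios correlated at 0.129 across members, and 54.2% of members leaned to the same side in both.

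The 4 ChIP libraries together allow a test, with 2 libraries for each protein and the cell type as a block. The 2 libraries of a protein come from different cell types and are not replicates within a cell type. The p-values and standard errors of this test thus rest on how far the cell types disagree and on a spread shared across peaks. They do not measure a spread between replicates. Over 59287 pairs of overlapping mESC and RMES peaks, edgeR's quasi-likelihood test called 86 at a Benjamini-Hochberg adjusted p under 0.05, which is 0.145% (0.0894% higher for mCdx2 and 0.0557% higher for rCdx2). Of the 44839 members tested (112 did not form a mutual pair with their RMES peak), 59 passed, 0.132%, with 29 higher for mCdx2 and 30 higher for rCdx2. At an unadjusted p under 0.05 there were 3819 members, 8.52%, against 8.75% of all pairs. The count rests on the method: DESeq2 called 11 of the same 59, all higher with rCdx2, and without the cell type block edgeR called 0, with 199 members at an unadjusted p under 0.05.

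The absolute log2 ratio of the 30 members higher with rCdx2 ranged from 0.45 to 3.86 with a median of 1.31, and 8 were past 2. For the 29 members higher with mCdx2 it ranged from 0.50 to 1.67 with a median of 0.78. At chr14:102788153-102788752, whose centre is a tandem repeat, rCdx2 read 169 in mESCs and 263 in RMES, and mCdx2 read 15.1 and 14.2. The 2 rCdx2 libraries were thus above both mCdx2 libraries by over 10 times, with a log2 ratio of mCdx2 to rCdx2 of -3.86 ± 0.21 (SE, adjusted p = 2.07e-42, edgeR). The intronic site chr3:129683721-129684285 with a tandem repeat at its centre read 344 and 804 with rCdx2 and 30.3 and 85.3 with mCdx2 (log2 -3.31 ± 0.14). The third largest excess, at the intergenic site chr9:6074812-6075662, was not repetitive by the limit given next, with 171 distinct words, and held 1 motif and 7 cores. It read 187 and 751 with rCdx2 and 32.2 and 60.4 with mCdx2 (log2 -3.27 ± 0.15). In the Reep1 intron, chr6:71716430-71716807 read 72.1 and 72.0 with rCdx2 and 9.46 and 5.33 with mCdx2 (log2 -3.27 ± 0.32). In the other direction the largest difference was at the intergenic site chr5:79870516-79870778, where mCdx2 read 35.0 in mESCs and 28.4 in RMES and rCdx2 read 10.6 and 9.15. Its log2 ratio was 1.67 ± 0.36 (adjusted p = 0.0116, edgeR), on raw counts of 37, 32, 10 and 8.

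Many of the members higher with rCdx2 had repetitive sequence. A centre was taken as repetitive when its 200 bp held fewer than 150 distinct words of 8 letters out of 193 possible, a limit set after the values were seen. This held for 460 members, 1.02%, and for 14 of the 30 members higher with rCdx2, 2 of the 29 higher with mCdx2 and 7 of the 8 past a log2 ratio of 2. Of the repetitive members 3.48% were called, against 0.0969% of the other members. Leaving the repetitive members out, 27 were higher with mCdx2 and 16 with rCdx2. The full motif lay in the centre of 5 of the 30 and 2 of the 29. The part of repetitive sequence in the difference was not tested. Among the 10 members with the highest sums, 2 were also called, both repetitive and higher with rCdx2: chr12:50807528-50808356 (557 and 248 with mCdx2, 958 and 392 with rCdx2, log2 -0.73 ± 0.10) and chr17:69726315-69727241 (206 and 473 with mCdx2, 304 and 899 with rCdx2, log2 -0.77 ± 0.11).

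**Figure D3:**
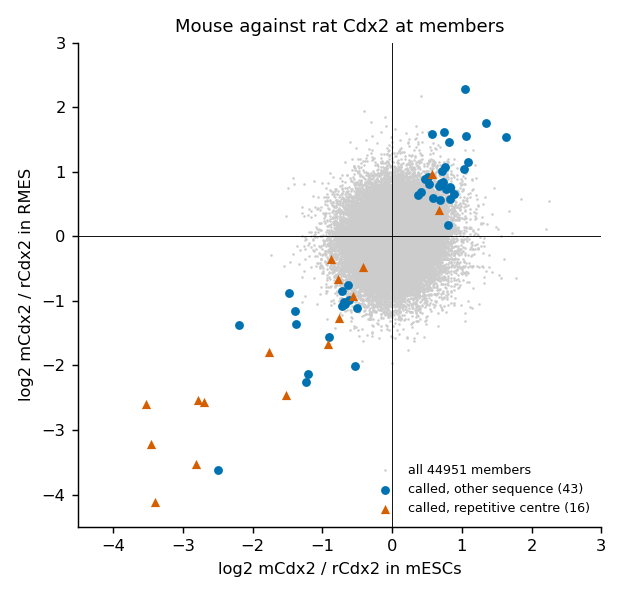
The log2 ratio of mCdx2 to rCdx2 in RMES against that in mESCs for all 44951 members (grey), the called members with a repetitive centre (orange triangles, 16) and the other called members (blue points, 43). Called members lie in the lower left and upper right quadrants, and 6 of the 7 called members below -2 on both axes are triangles.

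The RNA-seq data show what genes near the members did when Cdx2 was induced. A gene was called when its adjusted p was under 0.05 and its log2 fold change over 1 in either direction. Both mESC comparisons share the WT libraries and are given side by side. With mCdx2, 33.4% of the 16000 genes tested were called, 18.4% higher and 15.0% lower than WT, and with rCdx2 34.5%, 19.0% higher and 15.4% lower. Among the 6794 tested genes whose start lay within 30 kb of a member, 31.5% were called with mCdx2 (19.0% rose, 12.5% fell) and 32.0% with rCdx2 (19.2% rose, 12.8% fell). In RMES, where both induced libraries were set against 2 WT libraries on the mouse genome, 44.5% of 16887 genes were called (28.3% rose, 16.1% fell), and 41.6% of the 7191 near a member (25.6% rose, 16.0% fell). These shares were close to those of all genes tested, and their order depended on how genes were tied to members. When each member was given its nearest gene start, 33.8% of genes were called with mCdx2 (22.6% rose, 11.1% fell), 34.1% with rCdx2 and 43.6% in RMES. Within 10 kb of a member the shares were 29.5%, 30.1% and 38.7%, and within 100 kb 32.7%, 33.7% and 43.6%.

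The share of genes that fell in mESCs varied with the distance to the nearest member. Among protein-coding genes with mCdx2, 8.31% fell when the nearest member was within 3 kb of the gene start, then 9.23% at 3 to 10 kb, 10.7% at 10 to 30 kb, 13.3% at 30 to 100 kb and 16.6% beyond 100 kb. With rCdx2 the first and the last of these shares were 8.75% and 17.1%. The share that rose was highest at 10 to 30 kb, 20.6% and 20.7%, and was 15.6% and 16.5% beyond 100 kb. In RMES the share that fell was 11.3% within 3 kb and 12.3% beyond 100 kb, and the share that rose was 22.8% and 30.9%. Over all tested autosomal protein-coding genes 12.5% fell and 18.4% rose with mCdx2. With rCdx2 these shares were 12.9% and 19.1%, and in RMES 13.1% and 28.2%. Neither these differences with distance nor the difference between the cell types was tested. Genes near several kinds of Cdx2 peaks are mixed in these groups. When only genes with a member and no Cdx2 peak inside an ATAC peak within 30 kb were kept, 19.9% of 3218 rose and 417 of them fell with mCdx2, 20.3% and 13.5% with rCdx2, and 31.3% of 3493 rose and 13.8% fell in RMES. Genes with no Cdx2 peak within 30 kb gave 17.6% and 18.3%, 18.8% and 18.9%, and 36.4% and 13.6%.

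**Figure D4:**
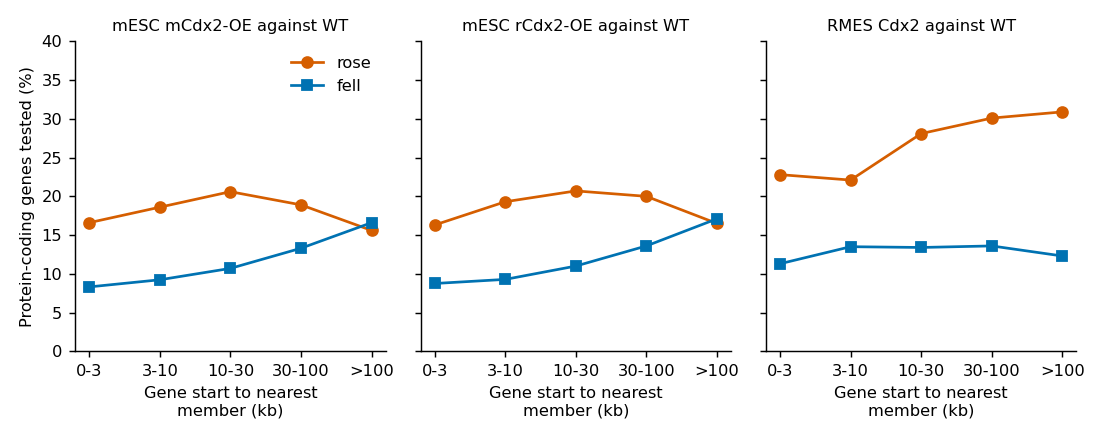
Share of tested protein-coding genes that rose (orange) or fell (blue) against WT, by the distance in kb from the gene start to the nearest member, for mCdx2-OE and rCdx2-OE in mESCs and for both induced RMES libraries together. In mESCs the share that fell climbs from 8.31% to 16.6% with mCdx2, while in RMES it stays between 11.3% and 13.6%. Over all tested autosomal protein-coding genes it was 12.5% with mCdx2 and 13.1% in RMES.

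Of the genes near a member and away from Cdx2 peaks in ATAC, 3218 were tested, and 590 (18.3%) rose and 382 (11.9%) fell in both mESC comparisons, against 17.1% and 13.7% of all genes tested. Among those tested in RMES too, 601 rose with mCdx2, 826 rose in RMES and 419 did both, which is 69.7% of the first and 50.7% of the second group. Over all genes tested in both cell types these shares were 67.1% and 47.7%, near those of this group. For falls the numbers were 373, 416 and 198 (53.1% and 47.6%, against 51.4% and 46.6% over all genes). Of the 601 rises with mCdx2 19 fell in RMES, and of the 373 falls 48 rose there. Over all genes tested in both cell types, 110 of 2764 rises and 278 of 2177 falls went the opposite way. With rCdx2 the shared numbers were 428 rises (69.3% and 51.8%, against 67.3% and 49.8% over all genes) and 201 falls (52.3% and 48.3%, against 51.5% and 48.0%).

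The 10 largest rises in this group with at least 50 counts on average were Tat, Cdx2, Peg10, Parm1, Aph1b, Ifi204, Vnn1, Tbx15, Gcm1 and Vav3. The rise of Cdx2, the induced gene, was set by the design. Peg10, an imprinted gene derived from a retrotransposon that the placenta needs, had 6 members within 30 kb and stood at 171 and 179 CPM in WT, at 5216 and 4808 CPM with mCdx2 and at 6330.5 and 6321 CPM with rCdx2. All induced libraries lay far above both WT libraries, a log2 change of 4.86 ± 0.11 with mCdx2 and 5.19 ± 0.11 with rCdx2 (adjusted p = 1.35e-14 and 6.25e-15, edgeR). In RMES, Peg10 stood at 1893 and 2003 CPM in WT and at 6732 and 7472 CPM after induction (log2 1.86 ± 0.05). Gcm1, which drives the formation of syncytiotrophoblast in the placenta, had 2 members, the nearer one in an intron at 4808 bp from its start with the motif GTCATAAA shown above. That member read 28.4 and 30.8 in mESCs and 40.0 and 49.2 in RMES. Gcm1 itself stood at 1.08 and 0.938 CPM in WT, 19.3 and 21.2 CPM with mCdx2 and 30.9 and 32.9 CPM with rCdx2, and in RMES at 0.0308 and 0.139 CPM in WT and 13.7 and 19.3 CPM after induction. These are log2 changes of 4.34 ± 0.14, 4.99 ± 0.14 and 7.50 ± 0.35.

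Tbx15, a T-box transcription factor, had 1 member in an intron 11793 bp from its start, which read 105 and 125 in mESCs and 47.1 and 67.5 in RMES and held 3 full motifs. The gene stood at 0.399 and 0.255 CPM in WT mESCs, 7.18 and 8.64 CPM with mCdx2 and 8.78 and 8.47 CPM with rCdx2. In RMES it rose from 0.277 and 0.194 CPM to 1.86 and 2.16 CPM (log2 3.08 ± 0.35). Vav3 had a member 2686 bp from its start and stood at 0.314 and 0.289 CPM in WT against 6.88 to 8.40 CPM in the 4 induced mESC libraries. Vnn1, a pantetheinase, had 2 members, the nearer at 4032 bp, and stood at 0.442 and 0.509 CPM against 10.4 to 13.9 CPM. Parm1 reached 14.1 to 19.3 CPM from 0.613 and 0.532 CPM, and Aph1b, a subunit of gamma-secretase, 5.43 to 8.45 CPM from 0.242 and 0.278 CPM. Tat, which breaks down tyrosine, stood at 0.0285 and 0.0695 CPM in WT and 3.68 to 5.01 CPM after induction. Of these 10 genes all but Cdx2 and Ifi204 also rose in RMES. Ifi204, an interferon-inducible gene with near-identical neighbours, was too low to be tested there, at 0 CPM in both WT libraries and 0.0478 and 0.0240 CPM after induction.

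**Figure D5:**
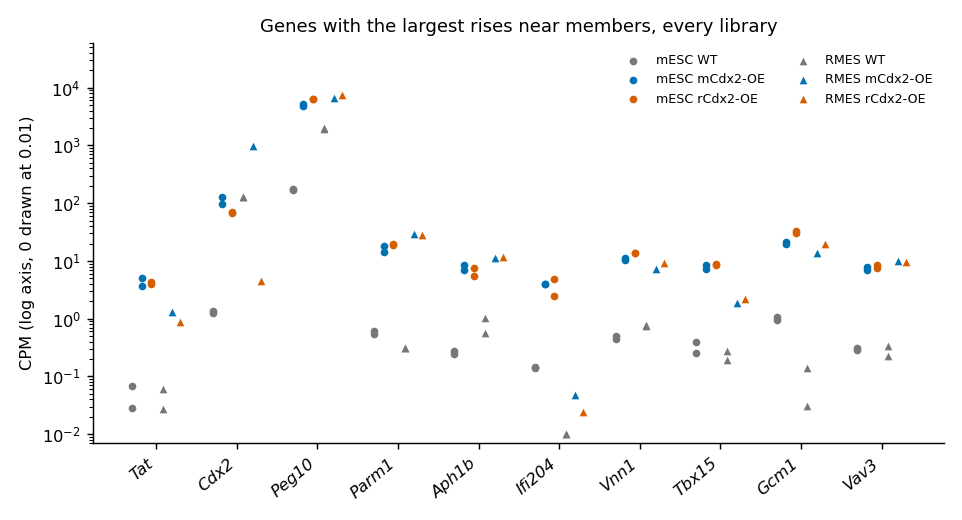
CPM on a log axis in every library for the 10 genes with the largest rises in mESCs among genes near a member and away from Cdx2 peaks in ATAC (circles mESCs, triangles RMES; grey WT, blue mCdx2-OE, orange rCdx2-OE). The induced mESC libraries lie above both WT libraries for all 10 genes, while for Cdx2 in RMES the library with rCdx2 lies below WT at 4.46 CPM.

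The 10 largest falls were mostly non-coding: Gm17103, Gm28198, Gm45669 and Gm16233 are annotated as antisense genes, Gm17300 and Gm26825 as lincRNAs and Gm10252 and Gm45760 as TEC, a class of transcripts without established status, and Col3a1 and A730015C16Rik are protein-coding. Gm17103 stood at 4.44 and 4.65 CPM in WT and at 0 in all 4 induced mESC libraries. Gm10252 stood at 97.4 and 67.1 CPM in WT and at 0.125 to 0.308 CPM after induction. Gm26825 was uneven in WT, at 213 and 85.9 CPM, and uneven after induction, at 1.25 and 0.0645 CPM with mCdx2 and 2.00 and 0 CPM with rCdx2. Over all 501 tested antisense genes 56.5% fell with mCdx2 and 58.5% with rCdx2, with a median log2 change of -1.77 with mCdx2, and of the 80 in this group 62.5% and 66.2% fell, while the median of all genes was -0.03. The WT libraries were also the deepest, and the part of depth in these falls was not tested. In RMES 48.0% of 579 antisense genes fell, with a median of -0.77.

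Large falls of protein-coding genes, taken after the values were seen, were therefore described as well. Trh, the precursor of thyrotropin-releasing hormone, stood at 129 and 128 CPM in WT mESCs and at 1.29 to 1.75 CPM in the 4 induced libraries, and in RMES at 1711 and 1759 CPM in WT and 65.7 and 43.5 CPM after induction. Its log2 changes were -6.34 ± 0.17, -6.37 ± 0.17 and -5.00 ± 0.15, and the nearest member, an intergenic one at 10645 bp with 9 cores, read 135 and 117 in mESCs and 95.1 and 81.2 in RMES. Col3a1 and Col1a2, chains of fibrillar collagens, stood at 4.19 and 4.20 CPM and at 11.3 and 10.6 CPM in WT and at 0 to 0.146 CPM and 0.219 to 0.578 CPM after induction. Vrtn stood at 5.02 and 5.08 CPM in WT and 0 to 0.116 CPM after induction. Gm11361 was uneven in WT, at 195 and 22.4 CPM. Zmat4 and Ccdc7a fell in mESCs (log2 -4.59 and -4.02 with mCdx2) and were not called in RMES, at 0.99 and -0.87. Without WT replicate 1 or the rCdx2-OE library Zmat4 was called as a rise in RMES (log2 1.22 and 1.11), opposite to mESCs.

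Lists of genes that mark the lineages of the early embryo were counted among genes with a member within 30 kb. Of the trophoblast stem cell genes 7 were tested, and 6 rose (Cdx2, Fgfr2, Gata2, Hand1, Krt8 and Krt18) and Cdh3 fell, with mCdx2 and with rCdx2. Cdx2 is the induced gene, so its rise in mESCs was set by the design, and it is counted here and over the whole list. Over the whole list 10 of 15 tested genes rose in each comparison, so that 4 of the 8 without a member within 30 kb rose too, and Eomes, which has no member that close, fell with rCdx2 (log2 -1.22). In RMES 6 of 7 rose, Cdh3 among them and Cdx2 not, and 9 of 15 rose over the whole list. Gata2, a regulator of trophoblast genes, stood at 2.15 and 1.84 CPM in WT mESCs, 74.8 and 74.3 CPM with mCdx2 and 100 and 107 CPM with rCdx2, and in RMES at 59.2 and 49.8 CPM in WT and 110 and 134 CPM after induction. Fgfr2, the receptor through which trophoblast stem cells receive Fgf4, was with Cdx2 and Cdh3 1 of 3 list genes with no Cdx2 peak in ATAC nearby, and went from 6.49 and 6.55 CPM to 35.1 to 47.5 CPM. Krt18, a keratin of simple epithelia, went from 9.03 and 9.99 CPM to 228 to 343 CPM. Elf5 was too low to be tested.

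Of the naive pluripotency genes with a member 5 were tested and 0 rose in mESCs. Pou5f1 fell with both proteins (log2 -1.47 and -1.56) and in RMES (-2.31), while Klf4, Zfp42, Tbx3 and Dppa3 were not called in mESCs, with log2 values of 0.58, -0.75, 0.31 and 0.54 with mCdx2. In RMES Pou5f1, Zfp42 and Tbx3 fell and Dppa3 rose, and the call of Tbx3 was lost without the rCdx2-OE library (log2 -0.97). Over the whole list of 13 tested genes 2 fell with mCdx2 and 3 with rCdx2, and in RMES 1 rose and 7 fell. Of 4 primitive endoderm genes with a member Gata4, Gata6 and Pdgfra rose with mCdx2 and Sox17 also with rCdx2, and in RMES Gata4 and Pdgfra rose. Among all 10 tested genes of this list 7 rose with mCdx2, 8 with rCdx2 and 7 in RMES, where Lama1 fell. Genes without a member that close thus rose too. The calls of Pdgfra with mCdx2 and of Sox17 with rCdx2 were lost when single libraries were left out (lowest log2 0.56 without mCdx2-OE replicate 1 and 1.40 without rCdx2-OE replicate 1), and that of Pdgfra also with DESeq2 (1.02). Of 5 genes of the primitive streak and posterior mesoderm Cyp26a1, which degrades retinoic acid, rose and Evx1 fell in both mESC comparisons, and Evx1 was not called without replicate 1 of the induced cells (log2 -0.79 with mCdx2 and -1.78 with rCdx2). In RMES Cyp26a1, Dll1 and Tbx6 rose and Evx1 fell, with Cyp26a1 lost without WT replicate 1 (log2 2.17) and with DESeq2 (3.17). The whole streak list gave 1 rise and 3 falls among 9 tested genes with mCdx2, and 2 rises and 4 falls with rCdx2. For RMES it gave 4 rises and 4 falls among 10. Of the intestinal genes with a member only Krt20 was tested, and it rose in the 3 comparisons. It stood at 0.143 and 0.0810 CPM in WT mESCs and 2.26 to 3.74 CPM after induction. Among all 7 tested intestinal genes 3 rose and 1 fell with mCdx2, 4 and 1 with rCdx2, and 4 and 3 in RMES. Sis, whose start lies 15 bp from a member's midpoint, and Mep1a were listed in the RMES table and held 0 to 0.0479 CPM there, and Cdh17 was too low to be tested.

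The Hox genes, which set position along the body axis and are known targets of Cdx proteins, had members in all 4 clusters, and 31 of them had one within 30 kb. With mCdx2 24 of 27 tested rose and 0 fell, with a median log2 change of 4.06 against -0.03 for all genes tested, and with rCdx2 23 of 27 rose, with a median of 4.02 against -0.04. In RMES 2 of 26 rose and 14 fell, with a median of -1.33 against 0.08. Over the whole Hox list 31 of 35 tested genes rose with mCdx2 and 30 of 35 with rCdx2. In RMES 7 of 33 rose and 14 fell, with a median of -0.46. Hoxb13, Hoxc4, Hoxd3, Hoxd4 and Hoxd8 rose there without a member within 30 kb. Of the 31 Hox genes with a member within 30 kb, 28 also had a Cdx2 peak inside an ATAC peak that close, so the counts are not particular to members. Hoxa9, 7324 bp from the member chr6:52223622-52223908, stood at 0.0285 and 0.0232 CPM in WT mESCs, 18.2 and 23.4 CPM with mCdx2 and 14.8 and 20.1 CPM with rCdx2. In RMES it stood at 43.8 and 46.5 CPM in WT and at 3.27 and 3.95 CPM after induction. In CPM the RMES controls thus stood above the induced mESCs. Each cell type was scaled on its own, and the RMES counts hold only reads assigned to the mouse genome. That member read 70.0 and 80.6 in mESCs and 52.4 and 60.6 in RMES. Hoxd13, the 1 tested Hox gene with members and no Cdx2 peak in ATAC nearby, had 3 members and rose from 0.642 and 0.637 CPM to 2.50 to 5.10 CPM in mESCs, while in RMES it stood at 0.585 and 0.805 CPM in WT and 0.717 and 0.958 CPM after induction. The mCdx2 calls of Hoxd1, Hoxb6 and Hoxc13 were lost without 1 of the mCdx2-OE libraries (log2 2.33, 2.50 and 0.98), and the RMES calls of Hoxa6 and Hoxa13 with DESeq2 (adjusted p = 0.0771 and 0.0955) and without the mCdx2-OE library (log2 -1.48 and 1.05). Hoxb7 was not called with mCdx2 (log2 0.82) or rCdx2 (1.72) but was called without WT replicate 2 (5.65 and 6.54), and with rCdx2 also with the replicate block (2.03).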

How the data were processed

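Every table used here holds read counts, left unnormalised by the authors. For RNA-seq the authors aligned read pairs to mm10 with STAR 2.7.0d with strand-specific counting over Ensembl genes, pseudogenes excluded. Both mESC replicates were counted in separate runs, and only replicate 2 is known to leave out incomplete and chimeric pairs. For RMES the authors assigned reads to the mouse or the rat genome by edit distance. For ChIP-seq and ATAC-seq they aligned with Bowtie2 2.3.4.3, called peaks with MACS2 on merged libraries and counted reads in peaks with featureCounts (1.6.0 for ChIP-seq). ChIP columns were assigned to the mouse or the rat protein by the initial M or R in their headers, read by analogy with the labels of the RMES RNA libraries. A peak called on merged reads cannot show whether each library alone would give it.

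Within a cell type, peak counts of each library were scaled to a common total, and 1 was added before log2 ratios. Each member was paired with the RMES peak it overlapped most, where the choice was mutual. Genes and positions came from GENCODE vM21 on GRCm38, with 18876 of 19919 mESC and 32053 of 34923 RMES gene symbols placed on an autosome. RNA-seq and paired peaks were tested with edgeR 4.0.16 in R 4.3.3 (TMM scaling, filterByExpr, quasi-likelihood test), with Benjamini-Hochberg adjustment over all genes or pairs. All 20 mESC libraries shared 1 model. Standard errors are the absolute log2 change divided by the square root of F, and CPM are scaled by TMM. In simulated counts, known changes were put only into features with a mean of at least 50 counts. Among these the ChIP test found 91.0% of 100 pairs changed by a log2 of 1, and the mCdx2-OE test 98.0% of 100 genes changed by 1.5. The simulated counts took their spread from the fits, and those for ChIP had the same level in both cell types at each pair. The shares found thus hold only for that setting. Median counts of members were 54 and 48 in mESCs and 48 and 38 in RMES, so recovery at weaker members was not measured. Replicates of a group differed by more than sampling noise, with a chi-square for each degree of freedom of 3.68 to 45.3, so none were merged. Motifs and words were counted by exact match on both strands. Other steps used Python 3.11.15 with pandas 2.3.3.

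Named genes were the 10 largest rises and the 10 largest falls called in both mESC comparisons, among genes with a member and no Cdx2 peak in ATAC within 30 kb and a mean of at least 50 counts, and the members of 6 lineage lists. Named sites were the 10 strongest and the 5 with the largest difference each way, both on chromosomes other than 18, and those nearest a named gene. One of the genes with a large fall is not reported here. The members and the lists were chosen with earlier results of these data known. Alternatives were no scaling, other windows and motif definitions, other filters, DESeq2 1.42.0, a replicate block and leaving out single libraries.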

Additional observations from a re-analysis of the deposited data

Results flagged for a closer look

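The genes below are near a member and were called in opposite directions in mESCs and in RMES, in every induced library against both WT libraries of its cell type. The difference between the cell types was not tested. Cdh3, a cell adhesion gene of trophoblast and epithelia, had a log2 change of 3.11 in RMES, against -2.06 with mCdx2 and -1.66 with rCdx2 in mESCs. Hoxa6 gave -1.94 in RMES against 4.91 and 4.02 in mESCs, and its RMES call was lost without the mCdx2-OE library (-1.48), without WT replicate 2 (-1.84) and with DESeq2 (adjusted p = 0.0771). Hoxa7 gave -3.90 against 4.51 and 4.09. Hoxa9 gave -3.65 against 9.41 and 9.14, and Hoxa10 gave -4.65 against 6.58 and 6.27. In the HoxB cluster, Hoxb3 gave -1.35 against 4.79 and 5.75, Hoxb4 gave -2.03 against 3.30 and 3.47, and Hoxb8 gave -1.48 against 4.93 and 4.72. In the HoxC cluster, Hoxc9 gave -1.59 against 5.18 and 4.96, and Hoxc10 gave -1.72 against 3.74 and 3.10. The WT levels of the Hox genes also differed between the cell types: Hoxa10 stood at 0.0999 and 0.0579 CPM in WT mESCs and at 24.4 and 22.4 CPM in WT RMES. Cdh3 showed the reverse, at 20.3 CPM in both WT mESC libraries and at no more than 1 CPM in both WT RMES libraries.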

How the results depend on the processing

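The number of members was 43159 when the RMES peak had to cover 50% of the mESC peak and 43413 at 500 bp or more from any ATAC peak. Without scaling, 449 members were past 2-fold in mESCs (402 with mCdx2, 47 with rCdx2) and 1791 in RMES (1735 and 56). That is 0.999% and 3.98% of members against 1.17% and 4.16% of all such peaks, so the split between the proteins depends on the scaling. With scaling kept and at least 100 reads, 16 members were past 2-fold in mESCs. Of the 59 members called over both cell types, DESeq2 called 11 and edgeR without the cell type term 0. The share with a motif was 13.7% in the central 100 bp, 30.3% in 400 bp, 33.9% anywhere in the peak (chosen after seeing the data) and 79.6% for the core, and the share near a gene start 4.0% at 3 kb. Leaving out single libraries gave 28.8 to 31.6% of genes near members called with mCdx2, 29.8 to 31.9% with rCdx2 and 38.2 to 41.9% in RMES. With a replicate block the shares were 31.4% with mCdx2 and 32.0% with rCdx2. The replicate number of the mESC libraries marks the counting run. The correlation of the deviations of same-numbered libraries was -0.04 between WT and mCdx2-OE and -0.06 between WT and rCdx2-OE, and ranged from -0.26 to 0.76 over the 45 pairs of groups. No block could be used in RMES, and leaving out a ChIP library leaves no test.

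Of 1506 alternative values of named genes 16 changed sign, all in comparisons where the gene was not called with all libraries. Without 1 library the log2 change with mCdx2 ranged from -0.07 to 5.65 for Hoxb7, -0.68 to 0.49 for Tbx6, -0.55 to 0.56 for Hoxc12 and -0.87 to 0.01 for Mixl1. With rCdx2 it ranged from -0.32 to 0.85 for Tbx6, -0.13 to 0.15 for Hoxc12 (0.02 with the replicate block), -0.65 to 0.19 for Hoxc11 and -0.07 to 0.67 for Dll1. In RMES it ranged from -0.01 to 0.20 for Hoxb5, -0.10 to 1.15 for Hoxb6 and -4.86 to 2.93 for Cdx2, the lowest without the mCdx2-OE library. A further 20 values lost a call and 8 gained one. The cause was not tested. Depth limits the ratio of single members, whose median was 54 and 48 unscaled reads in mESCs.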
